A study of Mus musculus with 9 samples.

Results

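The genes described here are 33 genes of cholesterol and fatty acid synthesis, followed in mouse embryonic stem cells (day 0) and in the embryoid bodies that these cells formed in hanging drops (day 4 and day 8). They were chosen by symbol, from a list of sterol pathway enzymes, SREBP (sterol regulatory element-binding protein) genes, sterol carriers and fatty acid enzymes. The rule itself uses no measured value, but the list was chosen with earlier results of these data known. All 33 were found among the 49326 named gene identifiers of the tables, and all 33 passed the filter on low counts, which left 24794 genes. They were kept in separate classes: 27 sterol genes (19 synthesis enzymes, 5 genes of the SREBP system and 3 sterol transport genes) and 6 fatty acid synthesis genes. PolyA+ RNA was sequenced from wild-type cells (1 library at each day) and from Hnrnpll-/- cells (2 libraries at each day, from the knockout lines G6 and H8). The protein made by Hnrnpll binds RNA and belongs to the hnRNPs, and the series asks how gene expression during embryoid body formation differs when it is depleted. Before the drops were set up, stem cell medium held leukemia inhibitory factor and 15% fetal bovine serum. The wild type is a single line, so genotype and line cannot be told apart in any comparison, and the p-values measure only the spread between these samples.

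Cholesterol is built from acetyl-CoA through mevalonate, squalene and lanosterol, and fatty acids are built from the same precursor through malonyl-CoA. SREBP2, the product of Srebf2, is best known for driving the sterol enzymes, and SREBP1, from Srebf1, for driving the fatty acid enzymes. When membrane sterol is plentiful, the INSIG proteins hold SCAP and its SREBP cargo in the endoplasmic reticulum, and the genes of the pathway are then transcribed less. Abca1, a cholesterol exporter, is a target of the liver X receptors, which are activated by oxysterols. Sterol-regulated promoters typically combine an SREBP site with sites for NF-Y, which binds the CCAAT box, and for Sp1, which binds the GC box.

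The 250 bases before the annotated start of 5 members are shown because the values of these genes carry the results below: Hmgcs1, Cyp51 and Insig1 stand for the genes that were lower in the knockout at day 8 than at day 4, and Abca1 and Elovl6 did not share that course. The sequences are RefSeq's, build GRCm38.p6, written 5′ to 3′ on the strand of the gene. Capitals mark the sterol regulatory element core TCACNCCAC, the CCAAT box and the GC box GGGCGG, each on either strand. The windows are chr13:119690101-119690350, plus strand, for Hmgcs1, chr5:4104698-4104947, minus strand, for Cyp51, chr5:28071162-28071411, plus strand, for Insig1, chr4:53159896-53160145, minus strand, for Abca1 and chr3:129532136-129532385, plus strand, for Elovl6.
Hmgcs1: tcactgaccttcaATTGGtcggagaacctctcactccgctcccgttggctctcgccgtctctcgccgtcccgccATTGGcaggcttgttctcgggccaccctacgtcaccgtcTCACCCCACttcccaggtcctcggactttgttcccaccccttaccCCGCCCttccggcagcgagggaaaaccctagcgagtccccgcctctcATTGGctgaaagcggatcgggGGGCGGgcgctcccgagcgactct
Cyp51: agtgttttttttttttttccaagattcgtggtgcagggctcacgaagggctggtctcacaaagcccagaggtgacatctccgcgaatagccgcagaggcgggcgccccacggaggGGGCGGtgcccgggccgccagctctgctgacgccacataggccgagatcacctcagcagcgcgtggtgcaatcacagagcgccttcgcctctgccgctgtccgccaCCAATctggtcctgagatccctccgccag
Insig1: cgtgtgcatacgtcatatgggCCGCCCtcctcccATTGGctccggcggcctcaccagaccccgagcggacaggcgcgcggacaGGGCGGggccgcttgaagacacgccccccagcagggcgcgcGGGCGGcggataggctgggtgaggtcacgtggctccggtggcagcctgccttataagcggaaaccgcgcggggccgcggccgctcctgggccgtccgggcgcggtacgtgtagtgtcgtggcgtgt
Abca1: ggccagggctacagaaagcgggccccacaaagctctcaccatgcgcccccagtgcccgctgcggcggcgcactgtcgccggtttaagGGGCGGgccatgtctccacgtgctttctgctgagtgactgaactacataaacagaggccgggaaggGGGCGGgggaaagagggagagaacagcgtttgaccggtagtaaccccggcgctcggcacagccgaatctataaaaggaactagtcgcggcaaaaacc
Elovl6: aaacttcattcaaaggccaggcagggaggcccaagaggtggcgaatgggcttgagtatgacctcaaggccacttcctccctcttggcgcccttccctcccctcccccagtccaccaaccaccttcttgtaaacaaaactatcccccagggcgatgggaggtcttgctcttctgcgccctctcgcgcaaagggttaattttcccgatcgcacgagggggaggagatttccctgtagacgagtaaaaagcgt
In the Hmgcs1 window the sterol element core begins 137 bases before the start and lies among 3 CCAAT boxes and 2 GC boxes. Cyp51 has 1 CCAAT box and 1 GC box, and Insig1 has 1 and 3. Abca1 has 2 GC boxes and no CCAAT box, and the Elovl6 window holds none of the motifs. Over the whole windows of 300 bases (250 before to 50 after the start), 26 of the 33 members could be matched by symbol and 7 (Fdps, Fdft1, Sqle, Stard4, Npc1, Scd1 and Scd2) could not. The CCAAT box was in 21 of the 26 (80.8%), against 41.1% of all 27025 genes with a window. Among the matched sterol genes 19 of 22 had it, and among the fatty acid genes 2 of 4 (Fasn and Acly). The GC box was in 22 of 26 (84.6%), against 38.2% of all genes. The sterol element core was in 1 of 26 (Hmgcs1), against 1.44% of all genes. The search took only this string, so an SREBP site spelled otherwise would not be counted. Mvk, Hsd17b7, Ebp and Insig2, not printed, held both the CCAAT and the GC box. They did not have both knockout libraries of day 8 below both of day 4. Acat2, Scap and Acaca did, and they held no CCAAT box. Whether motif and course go together was not tested. In the printed windows 0 bases belong to more than 1 match, and a match is a string of letters, not a measured site.

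Total counts per library ran from 54202944 to 184890212, and the 2 knockout libraries of day 0 were the shallowest. Among genes with up to 40 counts, counts that are multiples of 4 made up 43.5% and 42.6% in those 2 libraries and 30.5% to 33.2% in the others, where chance gives 25%. In TPM (a level scaled to transcript length and to the library), Hnrnpll was measured at 77.1, 101 and 112 in the wild type at day 0, 4 and 8. Line G6 had 54.9, 61.2 and 56.5 TPM and line H8 24.5, 38.6 and 43.5, below the wild type in every library but present, and it passed the test at no day (edgeR adjusted p = 0.245, 0.376 and 0.212). The 6 pluripotent stem cell markers summed to 6137 TPM in the wild type at day 0 and all were present in every day 0 library.

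At day 0, in the stem cells, the libraries of the 2 knockout lines differed from each other in most members of the pathway. Line G6 stood above H8 in 30 of 33 members, and in 47.7% of all genes. The median log2 difference was 0.753 (1.69-fold) in CPM (counts scaled to library size), against a median of 0 over all genes tested. The fatty acid genes were apart by more (median 1.25, or 2.38-fold, 6 of 6 above 0) than the sterol genes (0.658, 24 of 27). G6 was over 1.5-fold above H8 in 23 members (18 sterol and 5 fatty acid genes), and 20.4% of all genes tested met the same rule. With 1 library per line and day these are values with no test. A trait of the line cannot be told apart from a difference of the single culture or library.
Hmgcs1, HMG-CoA synthase, was measured at 179 TPM in G6, 48.2 in H8 and 92.3 in the wild type at day 0. Dhcr7, the reductase of the last step to cholesterol, had the largest difference between the lines among the members, with 58.2 TPM in G6, 12.7 in H8 and 18.4 in the wild type. Fasn, the fatty acid synthase, was at 109, 31.9 and 61.1 TPM in the same order. For these 3 genes the wild-type library lay between the knockout lines. The same held for Scd2, a stearoyl-CoA desaturase (330, 88.3 and 107 TPM), and for Insig1, a brake on SREBP (118, 32.3 and 43.3 TPM). It also held for Idi1, the isopentenyl diphosphate isomerase (62, 19 and 41.6 TPM). Mvd, the mevalonate diphosphate decarboxylase, was at 64.1 TPM in G6, near 20.7 in H8 and 21.8 in the wild type. Thus G6 was high and H8 was near or below the wild type. Against the wild type, G6 was higher in 32 of 33 members (45.4% of all genes), with a median log2 difference of 0.643 (-0.0603 over all genes). H8 was higher in 15 of 33 members (45.5% of all genes), with a median of -0.0936 (-0.0537 over all genes).

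**Figure D1:**
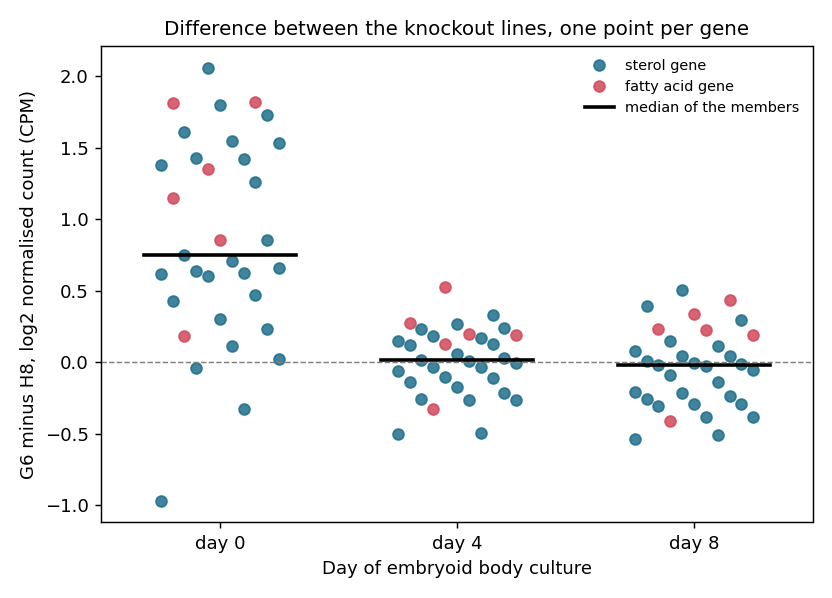
Difference between knockout lines G6 and H8 at each day (log2 of CPM, vertical axis), with 1 point per gene, sterol genes in blue and fatty acid genes in red, and the median of the 33 genes as a bar. The median is 0.753 at day 0, 0.019 at day 4 and -0.0211 at day 8.

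Beside the line difference, Hnrnpll itself was at 54.9 TPM in G6 and 24.5 in H8 at day 0. The 6 fibroblast markers summed to 133 TPM in G6, 68.4 in H8 and 167 in the wild type, and the pluripotent markers to 8177 and 8483 TPM in G6 and H8. The part of these in the line difference was not tested. In bulk RNA, fewer cells of a type and less RNA per cell cannot be told apart. The median over the members of the log2 difference G6 minus H8 was 0.019 at day 4 and -0.0211 at day 8. No member was over 1.5-fold higher in G6 at day 4 (15.2% of all genes) or at day 8 (12.2% of all genes), and none was over 1.5-fold higher in H8 at day 8 (19.5% of all genes).

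A few members were high in both lines at day 0. Tm7sf2, a sterol reductase of the step after Cyp51 (minus strand of chromosome 19, 6062821 to 6068373), reached 19.7 TPM in G6 and 15.2 in H8 against 5.82 in the wild type. Both knockout libraries were far above the wild-type library, and the gene was the only member of the 33 to pass the test at day 0 (log2 difference 1.56, SE 0.316, edgeR adjusted p = 0.0481). Its call rests near the threshold: with other settings the adjusted p ran from 7.8e-06 in DESeq2 to 0.131 without either day 4 knockout library, and the call ended without the day 0 library of G6 (adjusted p = 0.056) and with the knockout line as a replicate block (adjusted p = 0.0521). Tm7sf2 overlaps Vps51 on the same strand, so its counts are uncertain. Of all genes tested, 5.43% passed at day 0.
Srebf2 had 141 TPM in G6 and 130 in H8, and 65.6 in the wild type (log2 difference 1.05, SE 0.264, adjusted p = 0.0782). It was nearly equal in the 2 lines, with a log2 difference of 0.0259, where the median over the sterol enzymes was 0.708. Scd1, the other stearoyl-CoA desaturase measured, was at 86.5 and 36.6 TPM against 17.1 (log2 difference 1.84, SE 0.513, adjusted p = 0.0986), and it passed with the knockout line as a replicate block (adjusted p = 0.0464). Abca1 was at 15.6 and 28.1 TPM against 6.08 (log2 difference 1.84, SE 0.438, adjusted p = 0.0699). It was higher in H8 than in G6, the reverse of 18 of the 19 synthesis enzymes (all but Ebp). Npc1, which exports cholesterol from lysosomes, was at 28 and 25.7 TPM against 17.6 (log2 difference 0.61, SE 0.18, adjusted p = 0.111). For these 4 genes both knockout libraries lay above the wild-type library. In edgeR none of the 4 passed without the block, and only Scd1 passed with it. DESeq2, with no block, called all 4 and Tm7sf2 at day 0, among 3737 of all genes. In all, 14 members (13 sterol genes and Scd1) had both knockout libraries above the wild type at day 0 (32.8% of all genes), and 0 had both below (40.5% of all genes). Without the G6 library the median of the sterol genes moved from 0.39 to -0.00588.

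At day 4 the libraries of the 2 lines were close to each other, and most members stood above the wild type in both. The 2 knockout libraries lay above the wild-type library for 26 of 33 members (22 of 27 sterol and 4 of 6 fatty acid genes), where 42.8% of all genes did, and below it for 4 (Lbr, Hsd17b7, Ebp and Scd2), where 36.4% of all genes did. The median log2 difference was 0.472 for the sterol genes and 0.355 for the fatty acid genes, against 0.0691 over all genes tested. No single member passed the edgeR test at day 4. At an unadjusted p under 0.05 there were 9 of 33 members, 8 higher and 1 lower, and 3352 of all 24794 genes. DESeq2 called 3 members (Msmo1, Abca1 and Scd1), among 1320 of all genes. Only 0.00807% of all genes (2 of 24794) passed at this day, and the lowest adjusted p of a member was 0.185.
Msmo1, the methylsterol monooxygenase, had 47 TPM in G6 and 50.1 in H8 against 22.7 in the wild type (log2 difference 1.17, SE 0.275, adjusted p = 0.19). Lss, the lanosterol synthase, was at 44.3 and 34.8 TPM against 18.1. Fdft1, the squalene synthase, was at 76.1 and 77.8 TPM against 36.4. In all 3 the knockout libraries were close to each other and apart from the wild type. Insig1 (67.6 and 59.6 TPM against 28.1) and Dhcr7 (47.7 and 33.3 against 21) were placed likewise. Scd1, at 38.1 and 25.3 TPM against 10.3, was the fatty acid gene with the largest difference (log2 1.54, SE 0.505, adjusted p = 0.289). Acly, the ATP citrate lyase, was at 247 and 209 TPM against 152, and Acaca, the acetyl-CoA carboxylase, at 28.6 and 23.2 against 21.9.
Hsd17b7, a sterol ketoreductase, was at 5.92 and 5.6 TPM against 10.6 in the wild type, and Ebp, the sterol isomerase, at 24.7 and 23.3 TPM against 35.5. These were the enzymes lowest relative to the wild type at this day. The wild-type library of day 4 also held the primitive streak markers at a summed 1519 TPM, against 52.6 in G6 and 121 in H8; their part in the day 4 differences was not tested.

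**Figure D2:**
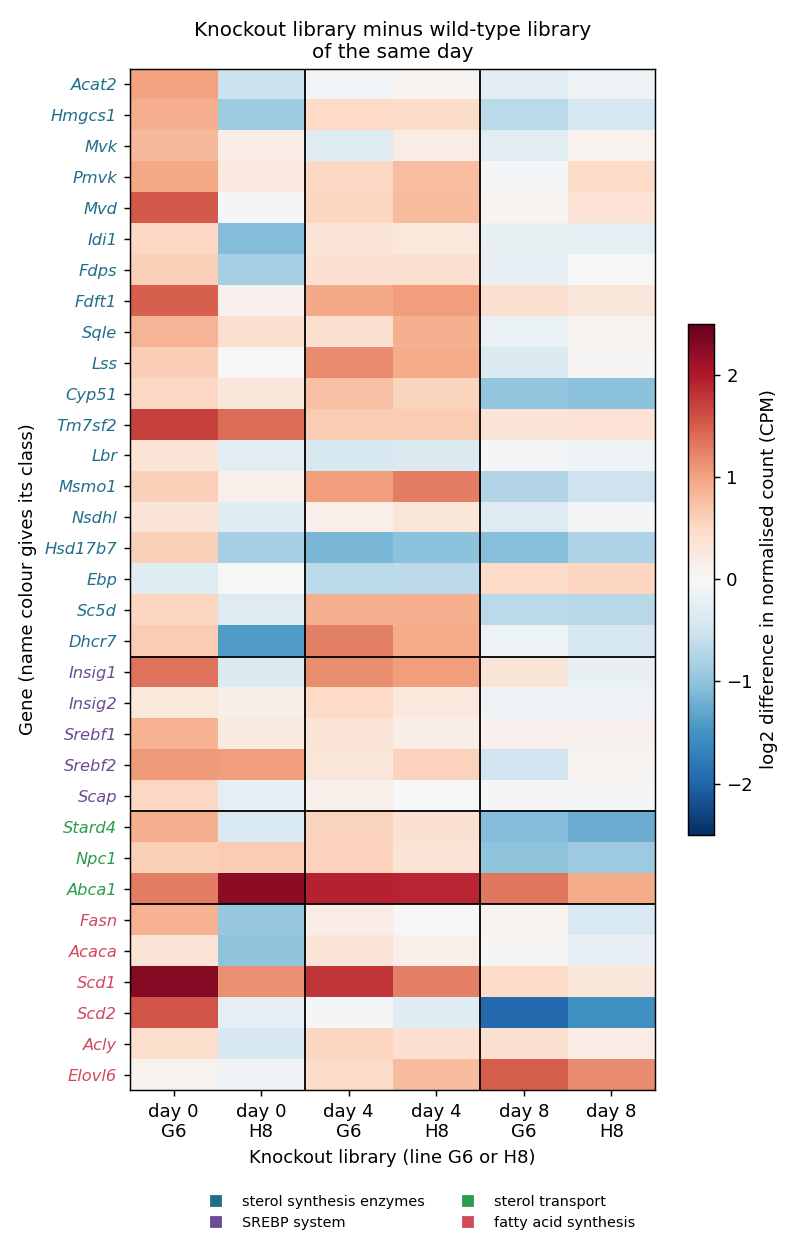
Each knockout library minus the wild-type library of the same day for the 33 genes (rows, grouped by class), in log2 of CPM, red for higher and blue for lower. G6 and H8 differ at day 0 (medians 0.643 and -0.0936) and resemble each other at day 4 (0.492 and 0.414).

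At day 8 most synthesis genes stood lower than at day 4 in both knockout lines, though only Cyp51 passed the test. For 27 of 33 members (22 sterol and 5 fatty acid genes) both day 8 libraries lay below both day 4 libraries, which 25.6% of all genes did. The median log2 change was -0.754 for the 19 sterol enzymes and -0.886 for the 6 fatty acid genes, against 0.00633 over all genes tested. The 6 members that did not separate this way were Mvk, Hsd17b7, Ebp, Insig2, Abca1 and Elovl6. In the wild type the median change over the members was -0.157, and 8 of 33 were higher at day 8 (51.1% of all genes). By the same count 3 of 33 were higher in G6 (48.9% of all genes) and 4 of 33 in H8 (50.6% of all genes). In the wild type 4 members were over 1.5-fold lower (Idi1, Fdps, Ebp and Fasn), as 27.5% of all genes were. Another 4 were over 1.5-fold higher (Sc5d, Stard4, Npc1 and Abca1), as 28.3% of all genes were.
Cyp51, the lanosterol demethylase (minus strand of chromosome 5, 4081145 to 4104746), had 36.5, 30.9 and 35.8 TPM in the wild type at day 0, 4 and 8. Line G6 had 55.3, 55.4 and 16.6 TPM on the same days and line H8 had 42.9, 46.7 and 16.5. Both knockout lines were above the wild type through day 4 and below it at day 8. It was the member that passed the test for the knockout course from day 4 to day 8, falling 3.09-fold (log2 change -1.63, SE 0.157, edgeR adjusted p = 0.0357), in a comparison where 0.311% of all genes passed. The direction held in 2 of 2 lines, and the call ended without any 1 of the 4 knockout libraries of day 4 and day 8 (adjusted p 0.142 to 0.274). Over all the other settings the adjusted p ran from 2.24e-14 to 0.0492. Cyp51 overlaps Akap9 on the opposite strand, and whether strand was used in counting is not given.
The other members did not pass in edgeR. With Cyp51, 12 of 33 members had an unadjusted p under 0.05 (11 lower and Abca1 higher), as did 3283 of all 24794 genes. Msmo1 had 47 and 50.1 TPM at day 4, then 15.9 and 20.4 at day 8 (log2 change -1.50, SE 0.217, adjusted p = 0.0613). Lss was at 44.3 and 34.8 and then at 11.4 and 16.5 TPM (log2 change -1.42, SE 0.261, adjusted p = 0.0972). In both genes every day 8 library was less than every day 4 library by a wide margin. Dhcr7, with 47.7 and 33.3 TPM at day 4 and 16 and 17.9 at day 8, had a log2 change as large as that of Cyp51 (-1.63), with a wider error (SE 0.611, adjusted p = 0.333). The error is shared over the groups and takes in the distance between the lines at day 0. Hmgcs1 (157 and 147 TPM, then 61.9 and 73.9), Fdps, the farnesyl diphosphate synthase (132 and 135, then 46.1 and 54), and Idi1 (41.5 and 37.8, then 16.2 and 15.4) were likewise separate between the days and close between the lines. Without both day 0 knockout libraries, a choice made after the data were seen, 6 members passed among 168 of all genes: Hmgcs1, Idi1, Fdps, Cyp51 and Msmo1 lower and Abca1 higher. DESeq2 called 8 (Fdps, Sqle, Lss, Cyp51, Msmo1, Srebf2, Abca1 and Scd1), among 1565 of all genes. In the same libraries the pluripotent markers summed to 3238 and 4009 TPM at day 4 and to 6822 and 6409 at day 8 in G6 and H8, and 2 of the 6 (Zfp42 and Esrrb) passed as higher, as 1 of the 5 neural markers (Nes) did as lower. The part of these in the day 8 levels was not tested.
Srebf2 was also lower at the later day, with 96 and 110 TPM at day 4 and 42.5 and 62.3 at day 8 (log2 change -0.97, SE 0.207, adjusted p = 0.127). Srebf1 was at 35.7 and 28.1 and then at 21 and 21.4 TPM, and Scap, the escort protein, was between 20.6 and 24.8 TPM in these 4 libraries. Insig1 was at 67.6 and 59.6 and then at 31.8 and 22.7 TPM, whereas Insig2, the other retention protein, was at 29.9 and 24.6 and then at 20.5 and 24.6. Among the fatty acid genes, Scd1 was at 38.1 and 25.3 TPM at day 4 and 13.5 and 11.9 at day 8, and Scd2 at 136 and 108 and then at 47.1 and 63.5. Scd1 and Scd2 are close paralogs and reads may be shared between them.

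**Figure D3:**
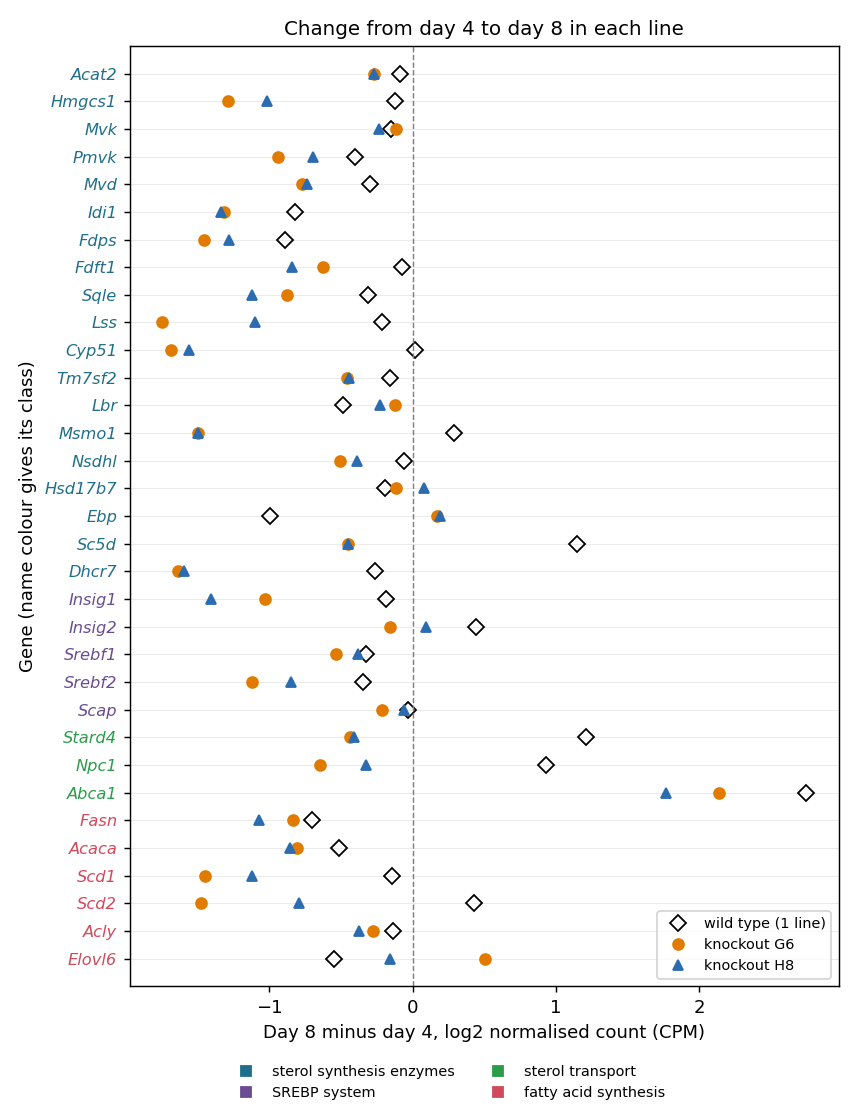
Change from day 4 to day 8 (log2 of CPM, horizontal axis) for each gene in the wild type (diamonds) and in knockout lines G6 (circles) and H8 (triangles). The knockout medians are -0.649 and -0.696 and the wild-type median is -0.157.

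Whether the knockout difference itself changed between days was tested as an interaction, which shares its day 4 and day 8 libraries with the comparisons above and below. Between day 4 and day 8 no member passed in edgeR, and neither did any other gene (0% of all genes). At an unadjusted p under 0.05 there were 7 of 33 members, 6 of them negative, and 4041 of all 24794 genes. DESeq2 called 4 members (Cyp51, Msmo1, Ebp and Npc1), among 1577 of all genes. For Cyp51 the change in the difference was -1.65 on the log2 scale (SE 0.268, adjusted p = 0.131) and for Npc1 -1.43 (SE 0.249, adjusted p = 0.133). The median was -0.509 for the sterol genes and -0.277 for the fatty acid genes, against 0.00727 over all genes. Between day 0 and day 4 the interaction called 0 members in edgeR, where 0.504% of all genes passed, and 0 in DESeq2, among 1898 of all genes. At an unadjusted p under 0.05 there were 0 members, against 4267 of all 24794 genes.

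At day 8, 3 members passed between knockout and wild type, in a comparison where 9.87% of all genes passed. Cyp51 was lower in the knockout, at 16.6 and 16.5 TPM against 35.8 (log2 difference -1.01, SE 0.182, edgeR adjusted p = 0.03). Npc1 was lower too, at 30.5 and 33.1 TPM against 67.1 (log2 difference -0.95, SE 0.17, adjusted p = 0.029). Elovl6, which elongates palmitate (chromosome 3, 129532355 to 129638495, plus strand), was higher, at 61.1 and 49.6 TPM against 23.6 (log2 difference 1.36, SE 0.244, adjusted p = 0.0294). In all 3 the knockout lines agreed and lay apart from the wild type. Each of the 3 calls ended without any 1 of the 4 knockout libraries of day 4 and day 8, which left no member called, and 7 members passed without both day 0 knockout libraries (Sc5d, Stard4 and Scd2 lower and Abca1 higher in addition), when the calls over all genes rose from 2446 to 4277.
These calls came about in different ways. For Cyp51 the wild type was between 30.9 and 36.5 TPM at all days and the knockout was low at day 8. For Npc1 the wild type was high at day 8: it stood at 17.6, 30.9 and 67.1 TPM in the wild type at day 0, 4 and 8 and at 49.7 and 40.1 TPM in the knockout at day 4. For Elovl6 the wild type was at 66.2, 29.7 and 23.6 TPM, while the knockout libraries were between 44.2 and 73.6 TPM at all days. Elovl6 overlaps 2 other annotated genes and Npc1 overlaps 2.

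**Figure D4:**
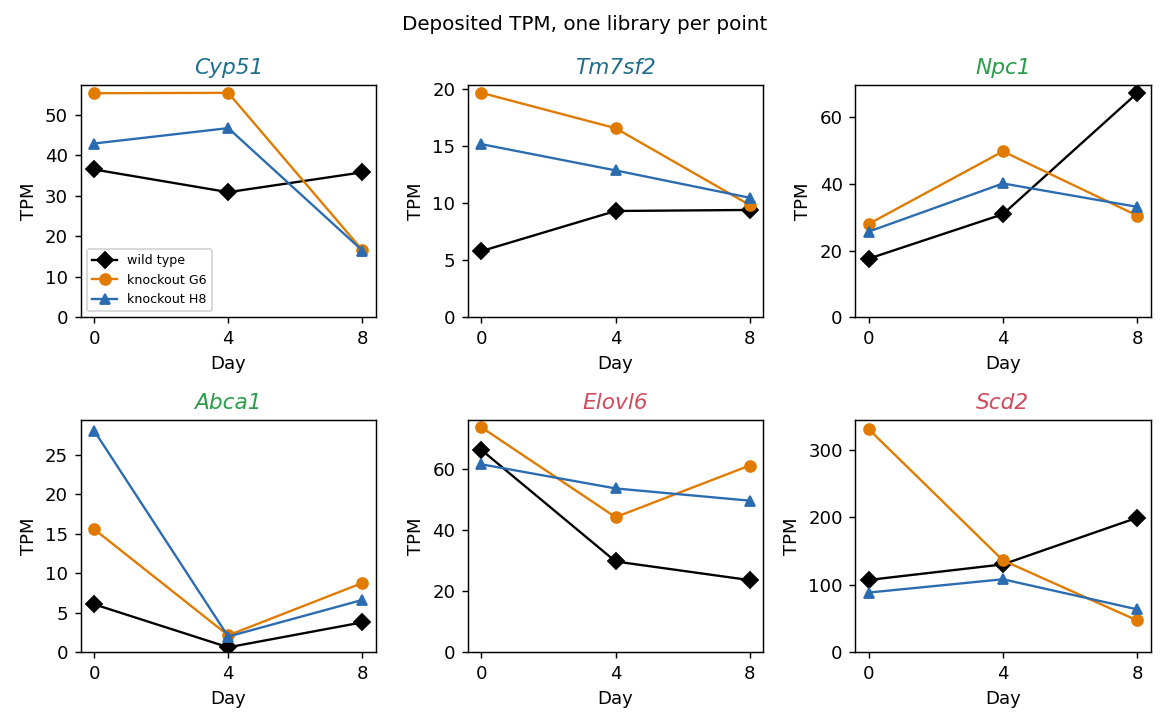
Deposited TPM (vertical axis, from 0) against day for 6 genes, with 1 point per library: wild type as diamonds, G6 as circles and H8 as triangles. Cyp51 is at 16.6 and 16.5 TPM in the knockout at day 8 against 35.8 in the wild type, and Abca1 is above the wild type in both lines at every day.

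Some other members that, like Npc1, were higher in the wild type at day 8 than at day 4 were low in both knockout libraries of day 8. Abca1 had the same wild-type course but was higher in the knockout at day 8 (8.78 and 6.63 TPM against 3.79). Insig2 had it too and was near the wild type (20.5 and 24.6 TPM against 24.6). Stard4, a cytosolic sterol carrier, was at 59.2 TPM in the wild type at day 8 and at 25.3 and 23.8 in the knockout (log2 difference -1.17, SE 0.453, adjusted p = 0.15). Scd2 was at 199 TPM against 47.1 and 63.5 (log2 difference -1.73, SE 0.627, adjusted p = 0.131). Sc5d, the sterol desaturase, was at 17.9 TPM against 9.51 and 9.71. The knockout libraries of Stard4, Scd2 and Sc5d were below the wild type without overlap, but the differences did not pass. In the same wild-type library, markers of differentiated cells were high. The 8 yolk sac and visceral endoderm markers summed to 716 TPM (58.6 and 66.8 in the knockout), the 6 cardiac markers to 237 (7.21 and 10.3), the 4 embryonic blood markers to 526 (0.465 and 4.28) and the 6 fibroblast markers to 462 (23.8 and 42.3), while the 5 neural markers summed to 67.5 (26.5 and 41.5). Of the defining markers, Hbb-y was listed at 0 in both knockout libraries of day 8 and Hbb-bh1 in G6, while all other markers of these 4 lists except Hba-x in G6 were above 0. The 6 pluripotent markers summed to 1124 TPM in the wild type and to 6822 and 6409 in the knockout. The part of these in the results for Cyp51, Npc1, Elovl6, Stard4, Scd2 and Sc5d was not tested.
Over the whole pathway the day 8 differences lay on either side of 0. The median log2 difference was -0.0952 for the sterol genes and 0.104 for the fatty acid genes, against 0.0754 over all genes. Both knockout libraries lay below the wild type for 15 members (14 sterol genes and Scd2; 40.3% of all genes) and above it for 9 (6 sterol genes with Scd1, Acly and Elovl6; 44% of all genes). Hsd17b7 was at 5.04 and 5.95 TPM in the knockout against 11.5 (log2 difference -0.91), Msmo1 at 15.9 and 20.4 against 31.6 (-0.63), Hmgcs1 at 61.9 and 73.9 against 108 (-0.56) and Ebp at 26 and 28 against 19.9 (0.51), and none of these passed. Others were nearer to the wild type. Sqle, the squalene epoxidase, was at 36.8 and 43.9 TPM against 45.4, Nsdhl, a sterol dehydrogenase, at 13 and 15.9 against 17.5, and Lbr, a sterol reductase that is also a receptor of the nuclear lamina, at 96.5 and 95.1 against 96.9. Mvk, mevalonate kinase, was at 11.1 and 14.4 TPM against 15.4, Pmvk, the next kinase, at 25 and 36.1 against 27.5, and Acat2, the thiolase that begins the pathway, at 44.4 and 48.6 against 56.3.

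Abca1 took a course of its own (chromosome 4, 53030787 to 53159895, minus strand). It was measured at 6.08, 0.625 and 3.79 TPM in the wild type at day 0, 4 and 8. In G6 it was at 15.6, 2.14 and 8.78 TPM and in H8 at 28.1, 1.99 and 6.63. All 3 lines were lowest at day 4, and both knockout lines were above the wild type at every day. The fall in the knockout from day 0 to day 4 passed the test (11.1-fold, log2 change -3.48, SE 0.359, edgeR adjusted p = 0.00416), also under every alternative run (adjusted p 5.98e-20 to 0.0469). In the same comparison all 6 pluripotent and 3 of the 6 fibroblast markers passed as lower, and the fibroblast markers summed to 133 and 68.4 TPM at day 0 and 21.3 and 21.5 at day 4 in G6 and H8 (167 and 34.7 in the wild type); their part was not tested. From day 4 to day 8, where most synthesis genes were lower, Abca1 was 3.92-fold higher (log2 change 1.97, SE 0.339, adjusted p = 0.0898), which did not pass.
Given day, Abca1 was 3.06-fold higher in the knockout over all days, and it was the only member to pass (log2 difference 1.61, SE 0.268, edgeR adjusted p = 0.0435), where 0.984% of all genes passed. The direction held in 6 of 6 knockout libraries against the wild type of the same day. The call ended without any 1 of the 9 libraries (adjusted p 0.0558 to 0.0997), with log2(TPM + 1) in limma (0.086) and with the knockout line as a replicate block (0.0619), and over all settings it ran from 3.88e-06 to 0.0997. Scd1 was next (log2 difference 1.21, SE 0.351, adjusted p = 0.118), and DESeq2 called it along with Abca1 and Tm7sf2, among 3347 of all genes.
From day 0 to day 4 Npc1 was the other member to pass in the knockout (1.68-fold higher, log2 change 0.74, SE 0.144, adjusted p = 0.0241), in a comparison where 14.7% of all genes passed. Its call ended without any 1 of the knockout libraries of day 4 or day 8. Over these days 6 of 33 members were higher at day 4 in G6 (54.2% of all genes) and 26 of 33 in H8 (54.9% of all genes). The median log2 change was -0.382 in G6 and 0.411 in H8, so that the mean over the lines was near 0 (median -0.0397). Leaving out the G6 library of day 0 gave 10 members called, 9 of them higher, with 4049 of all genes called, and leaving out that of H8 gave 6, 5 of them lower, with 3214 of all genes called.

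Genes next to the pathway were followed in 5 lists, with up to 3 genes named for each. Of 16 genes of sterol uptake, storage and efflux, 2 passed as higher and 1 as lower in the knockout at day 0 (5.43% of all genes passed), 0 at day 4 (0.00807%), and 1 as higher and 5 as lower at day 8 (9.87%). Soat1, which esterifies cholesterol for storage, was at 29.2, 86.9 and 96.5 TPM in the wild type, 15, 57.6 and 31.3 in G6 and 11.7, 55.3 and 34.1 in H8, lower in the knockout at each day. It passed at day 0 (log2 difference -1.33, SE 0.163, edgeR adjusted p = 0.0126), at day 8 (-1.48, SE 0.162, 0.0175) and over all days (-1.18, SE 0.154, 0.0237). Abcg1, another cholesterol exporter, was higher at day 8, with 7.88 and 5.47 TPM against 1.62 (log2 difference 2.27, SE 0.384, adjusted p = 0.0266). Vldlr, a lipoprotein receptor, was lower at day 8, with 8.97 and 13.3 TPM against 41.5 (-2.02, SE 0.308, 0.0234). At day 0 Mylip, a ligase that degrades lipoprotein receptors, was higher, with 5.52 and 4.82 TPM against 1.68 (log2 difference 1.63, SE 0.322, adjusted p = 0.0453). In the knockout course from day 0 to day 4, 2 genes passed as higher (Soat1 and Vldlr) and 2 as lower, among them Lrp1, where 14.7% of all genes passed.
Of 8 genes of SREBP processing and turnover, 2 passed, both lower, at day 8, where 9.87% of all genes did. Among them was Erlin2, a cholesterol-binding protein of the endoplasmic reticulum, with 40.6 and 40.5 TPM against 75.6 (log2 difference -0.79, SE 0.164, adjusted p = 0.0389). Erlin1 was lower at day 4 than at day 0 in the knockout (adjusted p = 0.0449). Among 11 genes of the isoprenoid branches, which draw on farnesyl diphosphate, 0 passed in any of the 8 comparisons.
Of 22 genes of fatty acid supply, elongation and desaturation, Acsl4, an acyl-CoA synthetase, was lower at day 0 (16.4 and 12 TPM against 43.5, log2 difference -1.59, adjusted p = 0.026) and rose from day 0 to day 4 in the knockout (adjusted p = 0.0175). At day 8 Acacb, the mitochondrial acetyl-CoA carboxylase (5.68 and 6.89 TPM against 3.45), and Thrsp, a lipogenic nuclear protein (0.843 and 1.26 against 0.114), were higher, and Fads3, of the desaturase family (0.297 and 1.27 against 8.18), was lower (adjusted p = 0.0344, 0.035 and 0.0462). Thrsp was also higher over all days (adjusted p = 0.0486). Of 12 genes of fatty acid oxidation, Cpt1a, the carnitine palmitoyltransferase that admits fatty acids to mitochondria, was higher at day 8, with 51.9 and 48.6 TPM against 9.61 (log2 difference 2.51, SE 0.332, adjusted p = 0.0208). It was lower at day 4 than at day 0 in the knockout, as was Acadm, an acyl-CoA dehydrogenase (adjusted p = 0.0372 and 0.00497). From day 4 to day 8 in the knockout 0 genes of the 5 lists passed, where 0.311% of all genes did. The marker sums given for day 8 move with the day 8 differences of these genes too, and their part was not tested.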

How the data were processed

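The values the authors deposited are counts of reads (whole numbers, unscaled) and TPM, both per gene and library. The submitters' processing notes name HISAT2 2.0.5, StringTie 1.3.3b and the mm10 build; their options, the annotation and strandedness in counting are not given in the sources used here. Members were matched by symbol, and gene coordinates (mm10) came from GENCODE M21, in which 18 of the 33 members overlap another gene. Entries with no gene name (259, at most 0.0398% of counts) were left out. Members, classes and lists were chosen with earlier results of these data known.

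A gene was tested if 2 or more libraries reached 0.079 CPM, which is 10 counts at the median depth. The two-sided quasi-likelihood test of edgeR 4.0.16 was run on TMM-scaled counts (R 4.3.3, limma 3.58.1), and p-values were adjusted by Benjamini-Hochberg over all 24794 genes (threshold 0.05). Within-day, knockout course and interaction differences came from 1 mean per group (3 residual degrees of freedom; prior 3.12; common biological coefficient of variation 0.348), and a day with 1 wild-type library was assumed to vary as the knockout does. Those over all days came from day plus genotype (5; 3.49; 0.494). Level differences of single libraries are log2 CPM with a prior count of 0.5. Comparisons share libraries and are set side by side only. The edgeR script was tested on simulated data with less dispersion than these data, which does not measure its error rate here. The differences G6 minus H8 pair libraries by line, and they correlated between days across 24794 genes with Pearson r = 0.068 (days 0 and 4), 0.056 (0 and 8) and 0.152 (4 and 8).

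Besides the 33 members and Hnrnpll, up to 3 genes per comparison were named from each of 5 related lists, by the smallest adjusted p among those called; some of these are not reported here. Marker lists were pluripotent, primitive streak, cardiac, yolk sac and visceral endoderm, embryonic blood, fibroblast and neural. Alternatives were RLE and total count scaling, no filter, DESeq2 1.42.0, limma-voom, log2(TPM + 1) and log2(TPM + 0.1) in limma, protein-coding genes alone, the knockout line as a replicate block and each library left out.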

Additional observations from a re-analysis of the deposited data

How the results depend on the processing

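No direction of a called member was reversed by any alternative run. Of 145 alternative values of the called members, 103 kept direction and call and 42 kept the direction only. Members called at day 0 numbered 1, and 0 with total count scaling, without the filter, in limma-voom and among protein-coding genes, and 5 in DESeq2 (0 to 5 with 1 library left out). At day 4 they numbered 0, and 3 in DESeq2. At day 8 they numbered 3, with 0 to 8 when 1 library was left out and 7 without both day 0 knockout libraries. From day 0 to day 4 the 2 calls became 1 to 10 with 1 library left out. From day 4 to day 8 the single call became 8 in DESeq2, 3 in limma-voom, 2 among protein-coding genes, 6 without both day 0 knockout libraries and 0 to 6 with 1 library left out. For the day 8 minus day 4 interaction DESeq2 called 4 in place of 0. Over all days the single call became 3 in DESeq2, 0 with log2(TPM + 1), 0 under the replicate block, 0 without both day 0 knockout libraries and 0 with any 1 library left out. The replicate block (knockout line) also moved Tm7sf2 at day 0 to an adjusted p of 0.0521, gained Scd1 there (0.0464) and, besides this gene and Abca1, ended no call of a member. The cause of these changes was not tested. The position counts (14, 26, 15, 27 and 23 members) were within 1.5 times of their value under RLE, total count and TPM. With total count scaling the median of the sterol genes at day 8 moved from -0.0952 to -0.00183. The median of all genes moved alike, from 0.0754 to 0.169 (a shift of 0.0935, the largest of the comparisons). Each comparison with the wild type rests on 1 library a day, and reads without molecular identifiers are not independent molecules.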
